A study of Mus musculus with 4 samples.

Results

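To follow the immune infiltrate of the gut muscle from the acute phase of inflammation towards its resolution, all cells of the 2 wild-type (WT) libraries were compared, the library taken 72 h post-injury against the one taken 24 h post-injury. These libraries hold 2989 of the 5811 cells of the series, 1674 at 24 h and 1315 at 72 h, and none of their cells was left out. The study performed droplet-based single cell RNA sequencing on CD45+ leukocytes sorted from the muscularis, the outer muscle layer of the mouse small intestine, which had been injured by surgical handling of the bowel (intestinal manipulation). It made 1 library for each genotype and time, and the other libraries came from mice that lack the chemokine receptor CCR2 (CCR2 KO). Both WT groups were C57BL/6J mice of 12 weeks that carried no targeted allele, and both had undergone the manipulation, so neither is an uninjured control. Each library pools the cells of several mice, which cannot be told apart. With 1 library per time there are no replicates, no test was possible, and time post-injury cannot be told apart from any other difference between the 2 libraries. All intervals below are 95% intervals of counting error alone.

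After injury, neutrophils and Ly6c+ monocytes leave the blood and enter the muscularis, where neutrophils release granule proteins and monocytes differentiate into macrophages (Mφs) over the following days. Early monocytes and Mφs are known for chemokines that call in further leukocytes and for a glycolytic metabolism. Mφs of the resolving phase are known for the uptake of dead cells, complement and MHC class II expression and growth factors, and resident muscularis Mφs lie beside enteric neurons and muscle cells.

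The 2 libraries were of similar depth, with 21206308 unique molecular identifiers (UMIs, each standing for 1 captured RNA molecule) at 24 h and 16600493 at 72 h, and medians of 12859 and 12427 per cell. Ptprc, which encodes CD45, was at 414 and 566 CPM (UMIs per 1000000 UMIs of the cells summed). The 14 markers of non-immune cells summed to 29.1 CPM at 24 h, with Sox10 at 0, and to 57.9 CPM at 72 h, with Krt8 at 0. The mast cell markers Cpa3 and Fcer1a were at 0 in both. The libraries shared 1 cell barcode.

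Monocyte/Mφ-like cells made up most of the infiltrate at both times, while neutrophil-like cells were fewer and dendritic cell (DC)-like, T cell-like and Siglecf-led cells more numerous at 72 h. Monocyte/Mφ-like cells were 1282 of 1674 at 24 h (76.6%) and 876 of 1315 at 72 h (66.6%). This gap of -9.97 percentage points (-13.2 to -6.71) was -1.40 with the libraries clustered separately. The -1.40 leaves out 118 cells of the 24 h library. Their cluster scored best for monocyte/Mφ markers but stayed without a name, since antibody genes led it. Neutrophil-like cells were 299 and 92 cells, or 17.9% (16.1 to 19.8) and 7.0% (5.68 to 8.51). A cluster led by Siglecf and by the granulocyte genes Mmp9, Ptgs2 and Csf1, which stayed without a cell type name, held 8 cells at 24 h and 100 at 72 h, and neutrophil-like and Siglecf-led cells together were 18.3% (16.5 to 20.3) and 14.6% (12.7 to 16.6). All other clusterings tried, except that at a resolution of 0.5, counted most Siglecf-led cells as neutrophil-like, and the difference in the neutrophil-like share was then between -3.25 and -4.36 points. DC-like cells were 56 and 138 cells, or 3.35% (2.54 to 4.32) and 10.5% (8.89 to 12.3), and T cell-like cells were 14 and 61. Neutrophil-like cells hold little RNA, so that they gave 3.47% of all UMIs at 24 h and 1.57% at 72 h, against 91.2% and 75.4% from monocyte/Mφ-like cells. In sums over all cells, fewer cells of a type and less RNA per cell cannot be told apart.

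**Figure D1:**
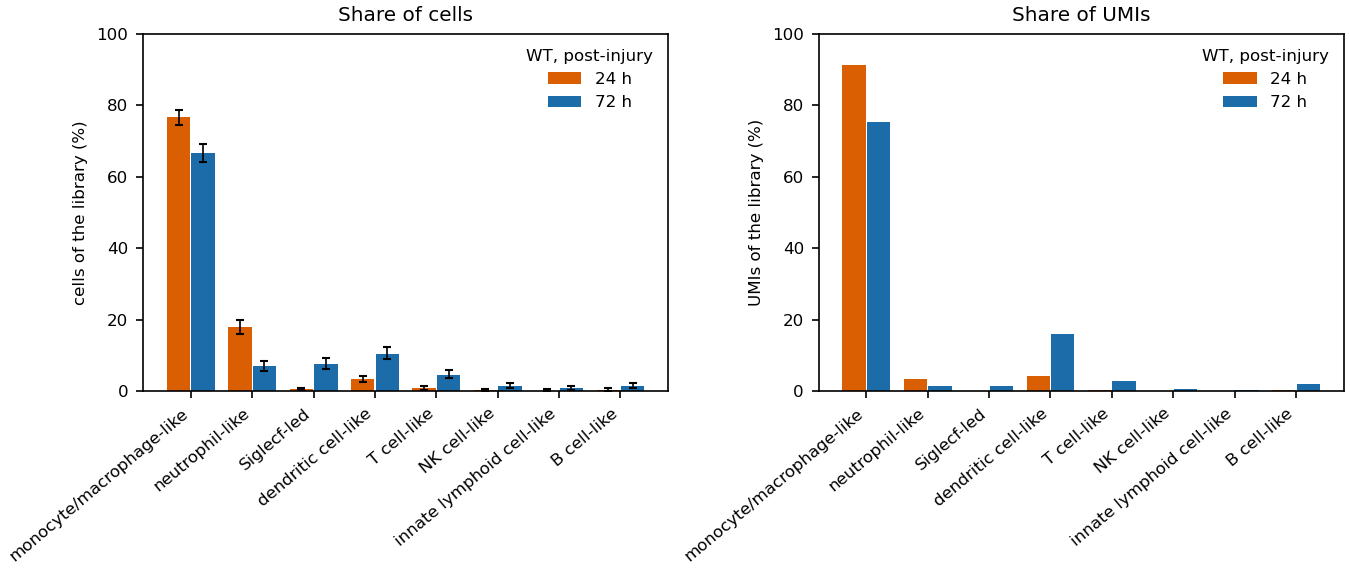
Share of cells (left, with exact binomial 95% intervals) and of UMIs (right) of each cell class in the WT libraries at 24 h (orange) and 72 h (blue) post-injury, in percent. The neutrophil-like share of cells was 17.9% and 7.0%, but these cells gave 3.47% and 1.57% of the UMIs, and the DC-like share of UMIs was 4.36% and 16.0%.

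Different clusters held most of the monocyte/Mφ-like class at the 2 times. At 24 h, 679 of its cells lay in a cluster led by Ppbp, Arg1 and Ccl7 and 499 in a cluster led by Vcan, Chil3 and Ly6c2. At 72 h, 536 of its cells lay in a cluster led by Ms4a7, Apoe and Selenop, 163 in the Vcan-led cluster and 19 in the Ppbp-led cluster. Smaller clusters were led by Saa3 (57 cells at 24 h and 63 at 72 h), Vcam1 (22 and 51) and the cell division gene Ube2c (1 and 44). A difference between times within the class therefore sets mostly Ppbp-led and Vcan-led cells against mostly Ms4a7-led cells. Values within the Vcan-led cluster, the one that held over 100 cells at both times, are given beside it. That cluster may itself hold unlike cells at the 2 times. At a resolution of 2, a cluster led by Dmkn, Chil3 and Gm9733 held 201 and 20 WT cells, and one led by Ear2 34 and 141. With no gene left out of the clustering, a Vcan-led cluster held 395 and 7. The part of this in the values within the cluster was not tested.

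Over all cells, the 12 lowest ratios included those of the chemokines Cxcl13, Cxcl3, Ppbp, Ccl2 and Ccl7 and of the acute phase genes Saa3 and Lcn2, and the 12 highest included those of Retnla, Ltc4s and Pltp. Of 7742 genes with a mean of at least 10 CPM, 510 (6.59%) were at least 2-fold higher at 72 h and 296 (3.82%) at least 2-fold lower. This split depends on the scaling: after TMM scaling, which moves all log2 ratios by -0.20, 355 were higher and 557 lower, and after median-of-ratios scaling, which moves them by -0.23, 338 and 589. For most such genes, most of the difference also existed inside cell classes. For the median of these 806 genes, 93.6% of the difference in CPM came from changed levels within classes and the rest from the changed shares of the classes. The part within classes was over 50% for 748 genes and below 0 for 16. A high part within classes was largely set in advance, since monocyte/Mφ-like cells gave 91.2% and 75.4% of the UMIs. It includes the change of clusters inside that class.

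Cxcl3 (GRCm38 chromosome 5, 90786103 to 90789600, plus strand), a chemokine that draws neutrophils through their receptor CXCR2, was at 650 CPM at 24 h and 7.77 CPM at 72 h, a log2 ratio of -6.39 (-6.65 to -6.14). Ccl2 (chromosome 11, 82035571 to 82037453, plus strand), the main ligand of CCR2, was at 4804 and 498 CPM, a log2 ratio of -3.27 (-3.30 to -3.24). Both therefore stood far above their 72 h level at 24 h, as did Ccl7, another CCR2 ligand, at 3200.0 and 403 CPM. Arg1 (chromosome 10, 24915221 to 24927484, minus strand), the arginase of wound Mφs, was at 1525 and 166 CPM. Saa3, an acute phase protein, was at 3199 and 204 CPM, and Lcn2, which binds bacterial iron carriers, at 702 and 18.1 CPM. Ppbp, Chil3, Vcan and the mitochondrial superoxide dismutase gene Sod2 were also among the 12 lowest ratios, between -5.65 and -2.84.

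A few cells carried the values of some of these genes. Cxcl13, a B cell attracting chemokine, had the lowest ratio of all, with 5990 UMIs in 25 cells at 24 h and 6 UMIs in 3 cells at 72 h. Of the 24 h UMIs, 5976 were in the Saa3-led cluster. Igkc, an antibody light chain, was at 630 and 54.7 CPM, but 1 cell held 97.6% of its UMIs at 24 h, and without the cell of highest count in each library its log2 ratio turned from -3.53 to 1.71.

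On the other side, Retnla (chromosome 16, 48842551 to 48844461, plus strand), a secreted protein of alternatively activated Mφs, was at 15.3 CPM at 24 h and 369 CPM at 72 h, in 12 and 128 cells. A single cell held 73.5% of its 24 h UMIs, and the log2 ratio was 4.59 (4.43 to 4.76) with and 6.19 without the cell of highest count in each library. Fcrls, an Fc receptor-like gene also known from microglia, was at 13.1 and 177 CPM. Ltc4s (chromosome 11, 50236461 to 50238616, minus strand), which makes leukotriene C4, was at 19.6 and 233 CPM, and Pltp (chromosome 2, 164839518 to 164857711, minus strand), which transfers phospholipids between lipoproteins, at 47.3 and 462 CPM. For these 3 genes the ratio with and without the cell of highest count differed by less than 0.1 on the log2 scale. Igfbp4, Stmn1, Cd83, Ear2, the neuropeptide receptor subunit Ramp1, the neonatal Fc receptor gene Fcgrt, Gas6 and Cd81 completed the 12 highest, with log2 ratios between 2.56 and 3.25.

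**Figure D2:**
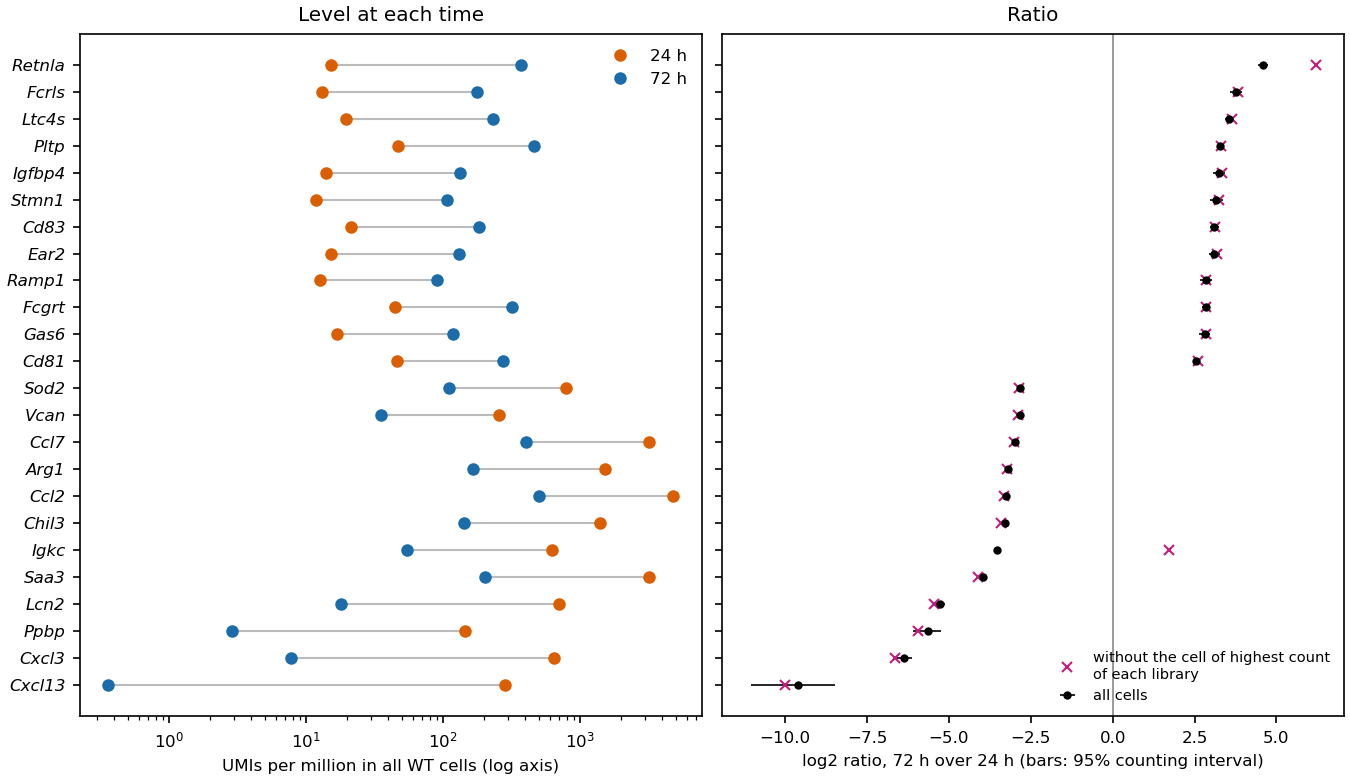
Left, level in all WT cells at 24 h (orange) and 72 h (blue) of the 12 genes with the highest and the 12 with the lowest ratio, in CPM on a log axis. Right, log2 ratio of 72 h over 24 h with its 95% counting interval (black), and the ratio without the cell of highest count of each library (crosses). Igkc is the gene whose ratio changes sign, from -3.53 to 1.71.

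Within monocyte/Mφ-like cells, 7645 genes had a mean of at least 10 CPM. Of these, 536 (7.01%) were at least 2-fold higher at 72 h and 412 (5.39%) at least 2-fold lower, or 388 and 626 after TMM and 383 and 634 after median-of-ratios scaling, which move all ratios of the class by -0.16 and -0.17. The median log2 ratio of all genes was near 0 (-0.00). Of the genes called over all cells, 82.7% of those higher (78.7% of the class's list) and 88.2% of those lower (63.3% of the class's list) were also called in the class, as they must largely be, since the class gave most UMIs.

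After the acute phase genes (3 of 3 at least 2-fold lower, median -3.75), the chemokines that draw neutrophils had the lowest median of all lists in these cells. The 4 CXCR2 ligands that passed 10 CPM were all at least 2-fold lower, with a median log2 ratio of -3.69. Cxcl3 was at 669 CPM at 24 h and 3.04 CPM at 72 h, Cxcl2, the CXCR2 ligand with the highest mean level, at 1401 and 415 CPM, and Ppbp at 160 and 3.36 CPM. At a depth of 1000 UMIs per cell, 16.4% (14.4 to 18.5) of these cells had a Cxcl3 UMI at 24 h and 0.347% (0.0716 to 1.01) at 72 h (34.1% and 1.14% before thinning), while none of 22 and 88 lymphoid cells (NK, T and innate lymphoid cell-like) did. Of the 15 other CC and CXC chemokines, 8 were at least 2-fold lower and 2 higher, with a median of -1.41. Ccl2 was at 5259 and 619 CPM, Ccl7 at 3505 and 491 CPM and Ccl24 at 464 and 78.1 CPM. Ccl8 went the other way, from 271 to 923 CPM (log2 ratio 1.77, 1.72 to 1.82). It was highest in the Vcam1-led cluster, at 842 CPM at 24 h and 3828 CPM at 72 h. The lower chemokine level was also present within the Vcan-led cluster, where Ccl2 was at 2886 and 700 CPM.

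Because 3 of the CXCR2 ligands share a promoter sequence of the type that NF-kB proteins bind, the promoter of Cxcl2 is shown, 250 bases that end just before the start site (RefSeq, GRCm38.p6, chr5:90903649-90903898, plus strand, written 5′ to 3′). The capitals mark GGGA, any 1 base and TTTCC, searched on both strands, which began 97 bases before the start site.
Cxcl2: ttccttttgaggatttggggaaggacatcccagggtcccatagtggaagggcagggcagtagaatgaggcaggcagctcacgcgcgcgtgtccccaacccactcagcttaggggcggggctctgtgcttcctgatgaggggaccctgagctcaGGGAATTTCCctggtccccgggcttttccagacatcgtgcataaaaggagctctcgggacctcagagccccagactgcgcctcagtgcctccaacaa
Of the 5 genes of the list with a promoter in the reference table, Cxcl1, Cxcl2 and Cxcl3 held it (60%), against 0.356% of all 32851 promoters of that length. The same sequence was also searched in 13 promoters of inflammatory cytokine and interleukin 1 family genes, where Il6 alone held it (7.69%). A match describes the letters and is not evidence of binding.

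Several interleukin 1 family genes were lower as well. Of 12 inflammatory cytokine and interleukin 1 family genes, 4 were at least 2-fold lower and none higher in monocyte/Mφ-like cells, with a median of -0.52. Il1b was at 1397 and 837 CPM, a log2 ratio of -0.74 (-0.77 to -0.71). Il1a was at 59.5 and 3.76 CPM and Il1rn, the natural antagonist of the interleukin 1 receptor, at 199 and 47.5 CPM. Over all cells, Il1b was not a Mφ gene alone. Monocyte/Mφ-like cells gave 63.9% of its UMIs at 24 h and 46.2% at 72 h, neutrophil-like cells 33.6% and 24.5%, and Siglecf-led cells 0.59% and 17.9%.

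Arg1 and Acod1, which makes the metabolite itaconate, were lower together with genes of sugar use. Of 5 arginine and itaconate enzymes, 4 were at least 2-fold lower, with a median of -2.84. Arg1 was at 1672 and 211 CPM in the class and Acod1 at 45.3 and 4.23 CPM. Arg1 was detected in 47.2% of cells at 24 h and 14.3% at 72 h at 1000 UMIs per cell (73.6% and 42.6% before thinning), against 4.55% and 3.41% of the lymphoid cells. Of 17 genes of glycolysis and the response to low oxygen, 12 were at least 2-fold lower and none higher, with a median of -1.11. Pkm, the pyruvate kinase with the highest level of the list, was at 1192 and 376 CPM, Ldha at 852 and 395 CPM, the glucose transporter Slc2a1 at 67.1 and 19.3 CPM and Hif1a at 548 and 240.0 CPM. Hk1, a hexokinase, was at 17.2 and 23.1 CPM. Within the Vcan-led cluster, 15 of 17 of these genes were below 0 but 1 was 2-fold lower, with a median of -0.62, against -0.04 for all genes of that cluster.

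Proteasome subunits were nearly all lower. Of the 37 that passed 10 CPM, 36 had a ratio below 0 and 10 were at least 2-fold lower, with a median of -0.91. The single gene above 0 was Psmb9, a subunit of the immunoproteasome, at 169 and 172 CPM. Psmb8, its partner, was at 486 and 363 CPM, whereas Psmd14, a subunit of the cap that strips ubiquitin, was at 147 and 65.8 CPM. The list was below 0 in all 37 members in the Vcan-led cluster too (median -0.61). By contrast, the median of the 79 ribosomal proteins was 0.08, and that of the 78 nuclear subunits of the respiratory chain was -0.35.

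Genes of antigen presentation, complement and resident Mφs were higher at 72 h. All 8 MHC class II genes that passed 10 CPM were at least 2-fold higher, with a median log2 ratio of 1.95. Cd74, the invariant chain, was at 4545 CPM at 24 h and 14711 CPM at 72 h, H2-Aa at 1511 and 5917 CPM and Ciita, the transactivator of these genes, at 29.9 and 141 CPM. In the Vcan-led cluster 8 of 8 were again at least 2-fold higher (median 1.51), and H2-Ab1 was at 2393 and 7525 CPM there. The lowest H2-Ab1 level of the class was in the Saa3-led cluster, at 79.8 and 840 CPM. At 72 h, H2-Ab1 was at 1040 CPM in the lymphoid cells, against 7.46 CPM at 24 h. Most of these are T and NK cell-like cells, which should lack it, but 10 at 72 h were innate lymphoid cell-like. The level of H2-Ab1 in monocyte/Mφ-like cells was 1419 and 5417 CPM.

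The promoter of H2-Aa is shown because all tested members of this list were at least 2-fold higher (RefSeq, GRCm38.p6, chr17:34287824-34288073, minus strand, 5′ to 3′, 250 bases that end just before the start site). The capitals mark CTGATTGG, the Y box of MHC class II promoters, searched on both strands, which began 51 bases before the start site.
H2-Aa: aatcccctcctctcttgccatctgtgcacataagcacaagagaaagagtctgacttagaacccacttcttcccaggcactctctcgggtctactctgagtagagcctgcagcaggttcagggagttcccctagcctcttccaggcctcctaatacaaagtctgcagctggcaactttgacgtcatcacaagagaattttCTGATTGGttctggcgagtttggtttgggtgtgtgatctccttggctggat
Of the 7 genes of the list with a promoter in the table, H2-Aa, H2-Eb1 and H2-Oa held it (42.9%), against 3.83% of all promoters.

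Of the genes with the highest ratios in the class, Fcrls was at 14.3 and 211 CPM, Fcgrt at 42.3 and 359 CPM, Cd81 at 48.8 and 326 CPM and Cd83 at 20.8 and 190.1 CPM. Ighm, the antibody heavy chain that B cells express, was at 29.4 and 186 CPM in 217 and 565 cells of the class. Ighm was found in 45.5% and 41.6% of the lymphoid cells before thinning.

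Complement was split. Of 11 genes, 5 were at least 2-fold higher and 1 lower. The 3 chains of C1q were higher, with C1qa at 1549 and 4606 CPM, and C3, the central component, was lower, at 181 and 58.4 CPM. C1qa was found in 45.8% (43.0 to 48.5) of the class at 24 h and 82.9% (80.2 to 85.3) at 72 h at 1000 UMIs per cell (60.9% and 90% before thinning), against 0% and 10.2% of the lymphoid cells. Of 12 resident and microglia-like Mφ genes, 11 were at least 2-fold higher, with a median of 1.97. They include Gpr34, a receptor for lysophosphatidylserine, at 1.66 and 49.5 CPM, Cx3cr1, the fractalkine receptor, at 28.2 and 164 CPM, and Selenop, which carries selenium, at 611 and 2873 CPM. Within the Vcan-led cluster 3 of 10 of them were at least 2-fold higher, with a median of 0.52.

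Growth factors and eicosanoid enzymes divided by member. Of 11 growth factor genes, 6 were at least 2-fold higher and none lower, with a median of 1.39. Igf1 was at 9.05 CPM at 24 h and 99 CPM at 72 h, Gas6, the bridge between dying cells and the receptors Axl and Mertk, at 18.4 and 142 CPM, Pdgfb at 4.24 and 32.5 CPM and Bmp2, which Mφs pass to enteric neurons, at 7.55 and 34.2 CPM. Tgfb1 was at 291 and 280.0 CPM and Vegfa at 11.9 and 9.59 CPM. Igf1 was highest in the Vcam1-led cluster (124 and 238 CPM), reached 135 CPM in the Ms4a7-led cluster at 72 h and stayed at 2.13 and 4.63 CPM in the Vcan-led cluster. Of 10 enzymes of prostaglandins and leukotrienes, 5 were at least 2-fold higher. These were the leukotriene enzymes Ltc4s (20.9 and 293 CPM) and Alox5 (4.09 and 26.8 CPM), the prostaglandin D2 synthase Hpgds (19.9 and 106 CPM), the constitutive cyclooxygenase Ptgs1 (35.1 and 119 CPM) and the prostaglandin-degrading enzyme Hpgd (2.85 and 54.3 CPM). The inducible cyclooxygenase Ptgs2 was at 72.7 and 50.6 CPM, and Alox15 was lower, at 22.0 and 3.60 CPM in 14 and 7 cells. Ltc4s was highest in the Saa3-led cluster, at 414 CPM at 24 h and 1576 CPM at 72 h.

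Lipid genes went both ways. Apoe, the most abundant of the list, was at 4287 and 25150 CPM, Pltp at 47.3 and 551 CPM and Trem2, a lipid receptor, at 152 and 488 CPM, while the fatty acid carrier Fabp5 was at 2120 and 399 CPM and the droplet coat gene Plin2 at 1367 and 419 CPM. Of 15 genes, 3 were at least 2-fold higher and 4 lower, and the median of 0.30 was between -0.25 and 0.34 across the settings tried. Receptors for dead cells and debris were split in the same way. Axl was at 57.8 and 240.0 CPM and Mertk at 72.4 and 102 CPM. The folate receptor gene Folr2 was at 62.7 and 214 CPM. The scavenger receptors Msr1 and Marco were at 516 and 121 CPM and at 29.9 and 0.240 CPM. Marco was in 28 cells at 24 h and 2 at 72 h. Of 10 genes of alternative activation, 5 were at least 2-fold higher, Retnla and Mgl2 (24.8 and 281 CPM) among them, and 3 at least 2-fold lower, Arg1, Ccl24 and Chil3 (1461 and 181 CPM). Mrc1, which encodes CD206, was at 478 and 768 CPM.

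Among genes of the monocyte state, Ly6c2 was at 148 and 25.3 CPM and Vcan at 278 and 45.2 CPM, while Ccr2 was at 759 and 1071 CPM. Of 11 monocyte genes, 6 were at least 2-fold lower, with a median of -1.51. Of 10 iron and haem genes, 3 were at least 2-fold lower and none higher (median -0.77), with the transferrin receptor Tfrc at 33.5 and 10.2 CPM. Fth1, the ferritin heavy chain, was at 15127 and 8689 CPM and the haem oxygenase Hmox1 at 302 and 172 CPM. Of 12 genes of oxidative stress defence, 5 were at least 2-fold lower and 1 higher (median -0.57). Sod2 was at 820.1 and 108 CPM, and catalase (Cat) went the other way, at 29.7 and 64.8 CPM. Of the matrix genes, the protease Mmp14 was at 181 and 38.3 CPM and the protease inhibitor Timp2 at 79.0 and 398 CPM. The coagulation factor gene F10 was at 302 and 67.3 CPM. The acute phase genes were all lower, with Lcn2 at 262 and 1.52 CPM and Saa3 at 3465 and 258 CPM, and S100a8 was at 447 and 84.2 CPM in 493 and 51 cells. Ifitm1, an interferon-induced membrane protein, was at 279 and 32.4 CPM.

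Transcription factors, lysosomal genes and pattern receptors were closer to level. Of 22 myeloid transcription factor genes, 6 were at least 2-fold higher and 1 lower, with a median of 0.25. Irf4, a factor of alternative activation, was at 1.86 and 20.5 CPM, Bhlhe40 at 32.6 and 111 CPM and Klf2 at 182 and 420.3 CPM. The clusters differed in Bhlhe40. At 72 h it was at 362 CPM in the Ube2c-led and 51.8 CPM in the Ms4a7-led cluster, against 570 CPM in the Ccl17-led cluster of DC-like cells. In the Vcan-led cluster it was at 37.2 and 153 CPM. Nr1h3, the lipid sensor LXR alpha, was lower, at 63.1 and 16.7 CPM, and the lineage factor Spi1 was at 534 and 484 CPM. The 15 lysosomal genes had a median of 0.09, and the cystatin Cst3 was at 1403 and 2866 CPM. Of 7 Toll-like receptor genes and partners, Tlr7 alone was past 2-fold, at 25.2 and 52.0 CPM, and Tlr4 was at 64.8 and 47.5 CPM. Of 6 chemokine receptors, 3 were at least 2-fold higher, Cx3cr1, Ccrl2 and Cxcr4, the latter at 25.7 and 92.8 CPM.

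Immediate early and heat shock genes, which cell isolation can induce, were higher at 72 h in 12 of 13 members, with a median of 0.70 and 3 past 2-fold. Hspa1b was at 31.8 and 128 CPM and Nr4a1 at 91.3 and 195 CPM, while Fos was at 1492 and 1448 CPM. In DC-like cells all 13 were above 0 and 6 at least 2-fold higher, with a median of 0.96. The part of this difference between the libraries in the other results was not tested.

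Cell division genes had the highest median of all lists, 3.34, with 9 of 13 at least 2-fold higher. Mki67 was at 7.29 and 54.3 CPM. The dividing cluster held 1 cell at 24 h and 44 at 72 h, and without it the median was 1.49. This cluster, named by the score over all markers, had no monocyte/Mφ marker among its 10 leading genes. At 72 h it had the DC markers Cd209a at 461 CPM and Ccl17 at 253 CPM, against 763 and 1078 CPM in the Ccl17-led DC-like cluster and 3.51 and 1.04 CPM in the Ms4a7-led cluster. With no gene left out of the clustering, Ube2c was among the leading genes of a DC-like cluster.

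**Figure D3:**
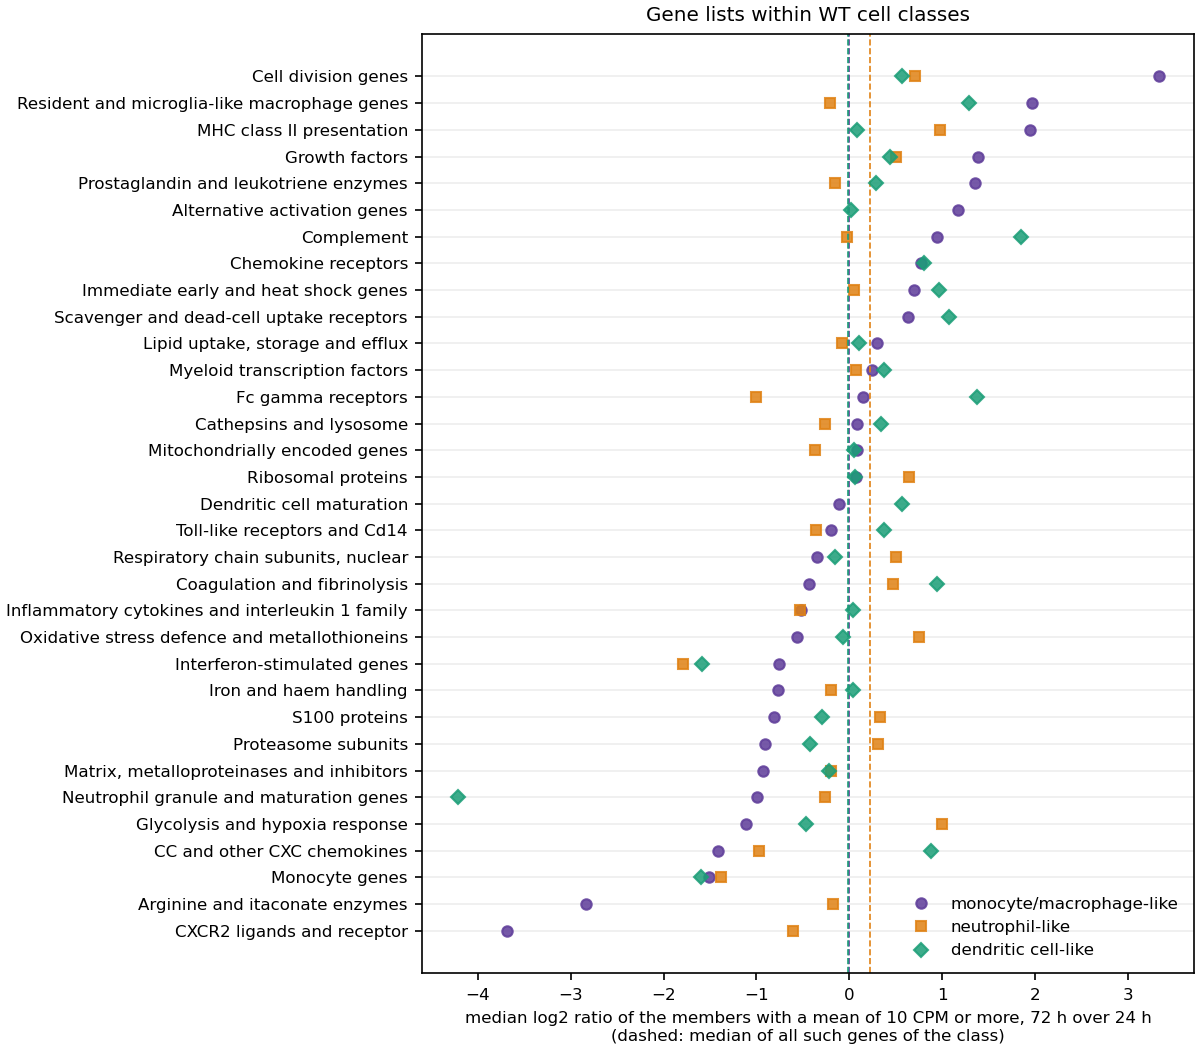
Median log2 ratio of 72 h over 24 h of the members of each gene list with a mean of at least 10 CPM, in monocyte/Mφ-like (violet circles), neutrophil-like (orange squares) and DC-like cells (green diamonds). Dashed lines show the median of all genes of a class, -0.00, 0.22 and -0.01. CXCR2 ligands are at -3.69 in monocyte/Mφ-like cells, and glycolysis genes are at -1.11 there and at 1.0 in neutrophil-like cells.

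**Figure D4:**
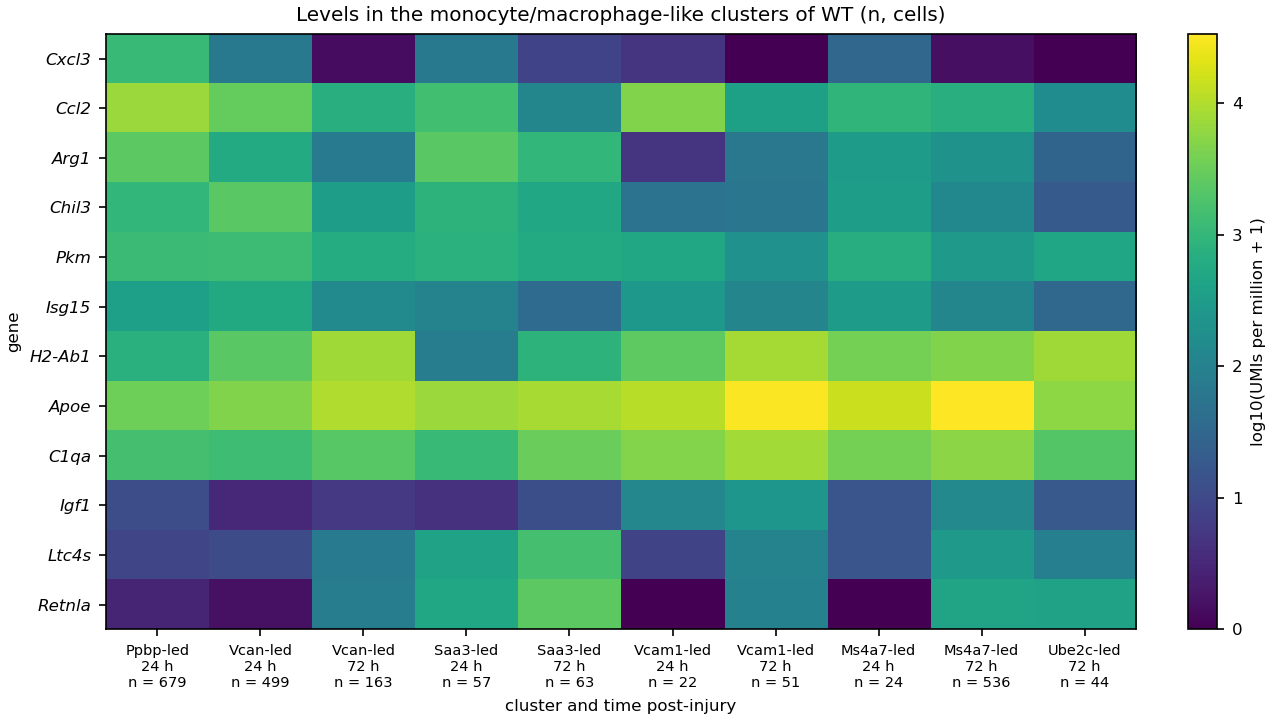
Level of 12 genes in the clusters of the monocyte/Mφ-like class at each time, as log10(CPM + 1), with the number of cells under each column; clusters with fewer than 20 cells at a time are left out. Cxcl3 is highest in the Ppbp-led cluster at 24 h, at 1122 CPM, and Ltc4s in the Saa3-led cluster at 72 h, at 1576 CPM.

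Interferon-stimulated genes were lower at 72 h in every class for which all genes were compared. In monocyte/Mφ-like cells 16 of 18 had a ratio below 0 and 6 were at least 2-fold lower (median -0.76). Isg15, a ubiquitin-like protein, was at 424 CPM at 24 h and 111 CPM at 72 h there, and Bst2, which tethers virus particles and had the highest mean level, at 617 and 389 CPM. The exceptions among members were Ifi44, at 9.73 and 18.7 CPM, and Ifit2, at 36.0 and 37.7 CPM. In the Vcan-led cluster, in which 222 of 7398 genes (3%) were at least 2-fold higher and 186 (2.51%) lower, 15 of 17 interferon-stimulated genes were at least 2-fold lower (median -1.22). In neutrophil-like cells 15 of 16 were at least 2-fold lower (median -1.79, with all genes at 0.22), and in DC-like cells 14 of 17 (median -1.59, with all genes at -0.01). Isg15 was at 1448 and 427 CPM in neutrophil-like and at 394 and 69.0 CPM in DC-like cells. Across the settings tried, the medians stayed between -0.93 and -0.68, between -2.43 and -1.73 and between -2.01 and -1.06.

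The promoter of Bst2 is shown because a motif of the kind bound by interferon-induced factors recurs in this list (RefSeq, GRCm38.p6, chr8:71537473-71537722, minus strand, 5′ to 3′, 250 bases that end just before the start site). The capitals mark overlapping matches to GAAA, any 2 bases and GAAA, searched on both strands, which began 130 and 124 bases before the start site.
Bst2: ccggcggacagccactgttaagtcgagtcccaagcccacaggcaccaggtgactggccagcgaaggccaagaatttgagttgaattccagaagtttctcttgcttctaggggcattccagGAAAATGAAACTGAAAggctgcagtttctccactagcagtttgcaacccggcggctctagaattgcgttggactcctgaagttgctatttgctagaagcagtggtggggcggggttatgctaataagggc
Of the 14 genes of the list with a promoter in the table, 7 held a match (50%; Bst2, Isg15, Rsad2, Ifit1, Ifit3, Gbp2 and Oas3), against 2.98% of all promoters.

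Neutrophil-like cells differed between the times in another way. Of 5384 genes, 762 (14.2%) were at least 2-fold higher at 72 h and 374 (6.95%) lower, or 373 and 672 after TMM and 403 and 654 after median-of-ratios scaling, which move all ratios by -0.29 and -0.28. With Siglecf-led cells counted as neutrophil-like, 1906 were higher. The class held 92 cells at 72 h with a median of 2801 UMIs, so most genes rest on few UMIs. The clusters also shifted: a Cxcr2-led cluster held 57.5% of the class at 24 h and 30.4% at 72 h, and a Retnlg-led cluster 15.4% and 32.6%. Of 13 neutrophil granule and maturation genes, 12 were below 0 and 3 of these, Ngp, Wfdc21 and Chil1, at least 2-fold lower, with a median of -0.26. The most abundant, S100a9, was at 57889 and 54654 CPM. The chemokine receptor Cxcr2 was at 1228 and 1216 CPM (log2 ratio -0.01, -0.20 to 0.17). Il1b was at 19316 and 21370 CPM and Cxcl2 at 17412 and 11549 CPM. Cxcl3, lower in Mφ-like cells, was lower here too, at 1138 and 208 CPM.

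Among the genes lower in neutrophil-like cells, Chil3 (chromosome 3, 106147554 to 106167564, minus strand) had 1361 UMIs in 143 cells at 24 h and none at 72 h. With 3 UMIs as the limit that a count of 0 allows, its log2 ratio was -7.32, and the upper end of its exact interval was -7.02. Lcn2 was at 13280 and 1069 CPM, and the granule gene Ngp at 151 and 7.69 CPM, from 111 and 2 UMIs. Ikbke, Pou2f2, Ifi207 and Id2 were the other genes furthest down, with log2 ratios between -3.35 and -2.78. The log2 ratio of Id2 was -2.78, and -0.58 when Siglecf-led cells were counted with the class.

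Glycolysis and hypoxia genes, lower in monocyte/Mφ-like cells, were higher in neutrophil-like cells. Of 18 genes, 9 were at least 2-fold higher and none lower, with a median of 1.0 that stayed between 0.57 and 1.09 across settings. Egln3, an oxygen sensor that low oxygen induces, was at 50.3 and 181 CPM (37 and 47 UMIs; log2 ratio 1.85, 1.19 to 2.51), Vegfa at 23.1 and 104 CPM and Ldha at 145 and 385 CPM. Vegfa rests on 17 and 27 UMIs. The ribosomal proteins of the class were also higher as a list, with 76 of 78 above 0 and a median of 0.64. The nuclear respiratory chain subunits had 61 of 73 above 0 (median 0.50) and the proteasome subunits 24 of 34 (median 0.31). The median of all genes of the class was 0.22. Xbp1, a factor of the unfolded protein response, was at 321 and 1031 CPM, and Gm9733, Sirpb1c, Cnbp and Gm2a, with log2 ratios between 1.69 and 2.09, completed the highest. Plaur, the receptor of urokinase, was at 348 and 977 CPM. The Siglecf-led cells, present mainly at 72 h, had Il1b at 18517 CPM, Ptgs2 at 3278 CPM and Csf1 at 895 CPM at that time and gave 46.7% of all Csf1 UMIs of the 72 h library.

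In DC-like cells, 420 of 7618 genes (5.51%) were at least 2-fold higher and 179 (2.35%) lower. The MHC class II genes, higher in monocyte/Mφ-like cells, were level, with none of 10 past 2-fold, a median of 0.09, and Cd74 at 21650 and 20893 CPM. Genes of the response to interferon and of monocytes were lower. Ifitm1 was at 1654 and 138 CPM, Ly6a at 437 and 48.3 CPM, Plac8 at 1722 and 371 CPM and Ms4a4c at 547 and 154 CPM. Ass1, which regenerates arginine, was at 169 and 38.9 CPM. On the other side, Cd83, a maturation marker, was at 49.8 and 207 CPM in 15 and 103 cells, and the immediate early gene Egr1 at 72.5 and 290.1 CPM. Of 11 maturation genes, 5 were at least 2-fold higher, but Ccr7, which guides DCs to lymph nodes, was in 3 and 8 cells, and 1 cell held 62.0% of the Ccl22 UMIs at 72 h. Ccl17 was at 924 and 832 CPM.

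Genes of T cell subsets were present at low levels. None of the 13 helper and regulatory T cell genes reached a mean of 10 CPM over all cells, and their sum was 5.94 CPM at 24 h and 45.5 CPM at 72 h. Foxp3, which defines regulatory T cells, had 0 and 46 UMIs, and Gata3, which type 2 lymphocytes share, 18 and 158. Il17a had 22 and 4 UMIs. Of the cytotoxic effectors, Gzma was at 86.8 and 22.5 CPM over all cells and Nkg7 at 12.1 and 34.5 CPM. The libraries held only 5 and 18 NK cell-like and 14 and 61 T cell-like cells.

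The highest ratios of DC-like cells belong mostly to Mφ genes. Apoe was at 273 and 4181 CPM, C1qa at 94.2 and 852 CPM, C1qc at 57.4 and 460 CPM and Selenop at 67.1 and 659 CPM. At 24 h the cell of highest count held 95.2% of the Apoe, 92.0% of the C1qa, 84.9% of the C1qc and 54.8% of the Selenop UMIs. Without the cell of highest count in each library, the log2 ratio of Apoe went from 3.94 to 8.17. In the lymphoid cells, which should lack these transcripts, Apoe was at 14.9 CPM at 24 h and 6654 CPM at 72 h, C1qa at 0 and 1067 CPM, C1qc at 7.46 and 569 CPM and Selenop at 261 and 1029 CPM. The 72 h levels of these 4 genes in DC-like cells were below those in the lymphoid cells. At 72 h, C1qa was found in 15.7% of the lymphoid cells before thinning and in 54 of 138 DC-like cells. Free RNA and doublets as sources of these UMIs were not tested. Fn1, fibronectin, was at 20.6 and 372 CPM in DC-like cells against 0 and 17.2 CPM in the lymphoid cells, and Trf, transferrin, at 43.3 and 272 CPM against 14.9 and 186 CPM.

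**Figure D5:**
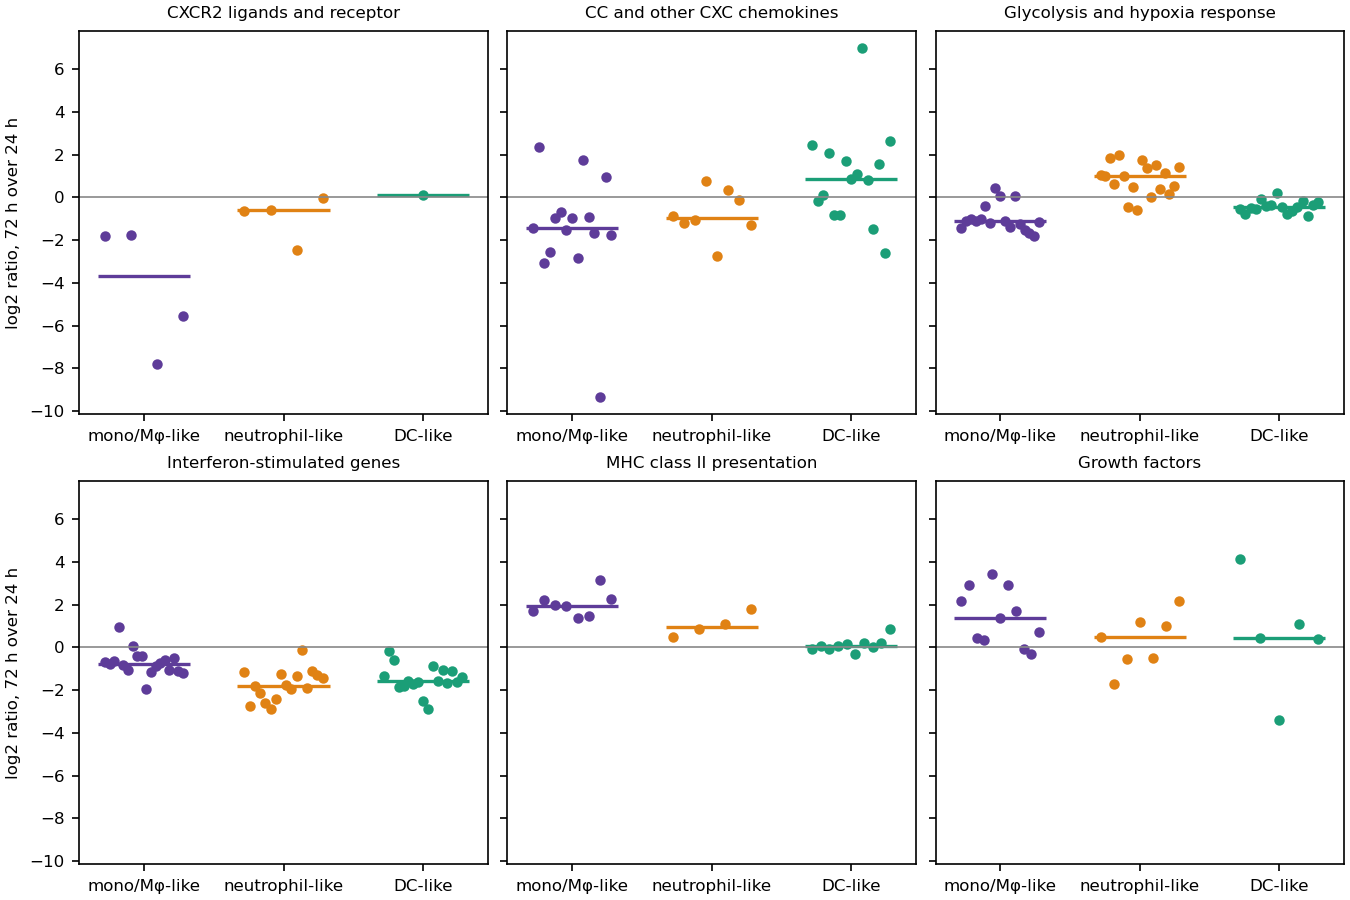
Log2 ratio of 72 h over 24 h of each member with a mean of at least 10 CPM of 6 gene lists (points) and their median (bars) in monocyte/Mφ-like, neutrophil-like and DC-like cells. All 8 MHC class II genes lie above 1 in monocyte/Mφ-like cells and all 10 lie within 1 of 0 in DC-like cells.

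The lists of later Mφs had unlike ratios in WT and CCR2 KO mice over the same interval. At 72 h the class was made up mostly of other clusters in CCR2 KO, where 7 of its 173 cells were Ms4a7-led, 56 Vcam1-led and 55 Ube2c-led. At 24 h, 104 of its 220 cells in CCR2 KO were Ppbp-led and 54 Vcan-led, the clusters that also led the class in WT. Over the same genes, the median log2 ratio of MHC class II genes in monocyte/Mφ-like cells was 1.95 in WT and 0.22 in CCR2 KO, and that of resident Mφ genes was 1.97 and 0.17. H2-Ab1 was at 1419 and 5417 CPM in WT and at 3070 and 3824 CPM in CCR2 KO, so that its log2 ratio was 1.62 (1.57 to 1.66) higher in WT. The ratio of Apoe was 2.96 (2.91 to 3.0) higher in WT, and that of Igf1 2.74 (2.30 to 3.18) higher, from 99 and 130 UMIs in CCR2 KO. Ccl2 was at 9429 and 1276 CPM in CCR2 KO, and Isg15 at 370 and 100 CPM. The difference of the log2 ratios was -0.20 (-0.26 to -0.14) for Ccl2 and -0.04 (-0.24 to 0.16) for Isg15. With 1 library for each genotype and time, none of these differences could be tested.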

How the data were processed

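The deposited values are raw UMI counts per gene and cell, not normalized by the authors, who prepared 10x Genomics 3' libraries, aligned the reads to GRCm38 and counted UMIs with Cell Ranger 3.0.2 per the submitters' processing notes, and removed cells with fewer than 200 genes or over 10% mitochondrial UMIs. The WT files hold 1674 and 1315 cells. Genes with a close paralog (Chil3 and Chil4, for example, or Ly6c1 and Ly6c2) may share reads, and their levels are uncertain.

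All 4 libraries were clustered together, without correction between them, by the Leiden algorithm (leidenalg 0.10.2, scanpy 1.11.5, Python 3.11.15; 30 principal components, 20 neighbours, resolution 1, 18 clusters). Genes of the lists were left out of the variable genes, except those that also serve as cell type markers. Such markers, among them Arg1, Apoe, C1qa, Ly6c2 and Ccr2, stayed eligible. Their levels in clusters and classes are therefore not independent of the clustering. Clusters were named "X-like" from marker genes by a score of at least 0.4 with at least 3 markers above 20 CPM, rules that were set after seeing the data. No WT cell and 14 CCR2 KO cells led by non-immune genes were removed. Scrublet called under 0.5% of the cells of each library as doublets. Whether it missed doublets was not tested, its calls were not used, and no doublets were removed.

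UMIs were summed over the cells of a class and given as CPM. Genes with a mean of at least 10 CPM over both times were compared by the log2 ratio with its exact conditional 95% interval, and called where at least 2-fold apart. A 95% interval or a limit for a count of 0 (3 UMIs) covers counting error only. Shares have exact binomial intervals, and differences of shares Newcombe intervals. The difference of a gene in all cells was split by arithmetic into a part within classes and a part from class shares. Scripts were tested on simulated data. TMM scaling used edgeR 4.0.16. For the percentage of cells in which a gene was found, each cell was thinned to 1000 UMIs, with 10 and 11 shallower monocyte/Mφ-like cells left out.

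Over all cells, the text names the 12 highest and 12 lowest log2 ratios among genes with a mean of at least 50 CPM and UMIs in at least 20 cells. Within classes it names the 8 (monocyte/Mφ-like) or 6 highest and lowest with a mean of at least 100 CPM and no cell with over 20% of the UMIs. From lists it names the most abundant gene and those furthest apart, and further members were chosen after their values were seen. The members, the gene lists and the comparisons were chosen with earlier results of these data known. Gene coordinates are from GENCODE vM21 and promoters from RefSeq, both of GRCm38. A few genes of the lists are not reported here.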

Additional observations from a re-analysis of the deposited data

Results flagged for a closer look

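Immediate early and heat shock genes moved in opposite directions in the 2 genotypes. Over all cells their median log2 ratio of 72 h over 24 h was 0.62 in WT, with 12 of 13 genes above 0, and -0.65 in CCR2 KO, with 0 of 13. In monocyte/Mφ-like cells it was 0.70 and -1.01, again with 12 and 0 of 13 genes above 0. Hspa1b was at 31.8 and 128 CPM in WT monocyte/Mφ-like cells and at 102 and 15.7 CPM in those of CCR2 KO. The difference was not tested, since each genotype and time has 1 library.

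S100 proteins in monocyte/Mφ-like cells had a median log2 ratio of -0.81 in WT and 0.77 in CCR2 KO. S100a8 was at 447 and 84.2 CPM in WT and at 44.6 and 76.3 CPM in CCR2 KO. This difference was not tested either.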

How the results depend on the processing

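No paired analysis was possible because each group is 1 library, and for the same reason leaving out a replicate was not possible. Depth limited values in the neutrophil-like class, whose cells had medians of 2083 and 2801 UMIs.

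Scaling moved the counts of genes at least 2-fold apart. After TMM, 557 genes were lower over all cells, 626 in monocyte/Mφ-like and 672 in neutrophil-like cells, and 373 were higher in the latter. After median-of-ratios scaling, 338 were higher and 589 lower over all cells, 634 lower in monocyte/Mφ-like cells, and 403 higher and 654 lower in neutrophil-like cells. Other minimum levels moved the counts by construction. With a mean of at least 1 CPM, 1682 were higher over all cells, 1551 in monocyte/Mφ-like, 2734 in neutrophil-like and 1124 in DC-like cells, and 562 were lower in neutrophil-like and 588 in DC-like cells. With 50 CPM, 132, 156, 166 and 84 were higher and 166, 206, 108 and 52 lower, in the order all cells, monocyte/Mφ-like, neutrophil-like and DC-like cells. With no minimum beyond 1 UMI, 3048, 2669, 1505 and 1088 were higher in that order, and 713, 823 and 691 were lower over all, in monocyte/Mφ-like and in DC-like cells. Adding 5 CPM to each level left 472 higher in neutrophil-like cells, and 256 higher and 102 lower in DC-like cells.

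The neutrophil-like class depended on the clustering. The genes higher there were 1791 with the WT libraries clustered together, 1291 with each library clustered on its own, 1939 at resolution 2, 2102 with no gene left out, 1934 with cells thinned first and 1906 with Siglecf-led cells counted in. In the same order the share differed by -3.81, -4.28, -3.43, -4.36, -3.25 and -3.74 points. The monocyte/Mφ-like share differed by -13.3 points without the dividing cluster, -1.40 with libraries clustered on their own and -13.8 after thinning. The -1.40 leaves out a 24 h cluster of 118 cells that scored best for monocyte/Mφ markers but stayed without a name. The DC-like share differed by 9.18 points with no gene left out and 9.58 after thinning, and the T cell-like share by 2.10 at resolution 2 and 1.64 with no gene left out. Libraries clustered on their own turned the NK cell-like share to -1.37 points. This turn came from the naming: a cluster of 23 cells with NK and T cell genes was named NK cell-like at 24 h. The similar 72 h cluster of 89 cells scored best for NK markers too but stayed without a name. Thinning gave 2.70 for the B cell-like share. In cells of at most 5% mitochondrial UMIs the shares differed by 10.3 (Siglecf-led), 1.32 (T cell-like) and 0.26 points (B cell-like).

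Of 1666 list medians under other settings, 1300 stayed within 0.25 of the reported value, 356 moved further or crossed 0 from a value under 0.5, and 10 of at least 0.5 turned. In neutrophil-like cells, inflammatory cytokines turned to 0.026 with WT clustered together, 0.12 on their own, 0.045 at resolution 2 and 0.031 with no gene left out, MHC class II genes to -1.15 with WT together and -1.24 on their own, and division genes to -0.082 on their own. In DC-like cells, coagulation genes turned to -0.11 and -0.25 and, on their own, division genes to -0.071. Of the named genes, Igkc alone turned, to 1.71 without the cell of highest count, and 773 of 780 of their values stayed at least 2-fold apart in the same direction. Settings chosen after seeing the data were those with Siglecf-led cells counted in, without the dividing cluster, without the cell of highest count, and without the cells of highest doublet score, of which the last moved none of these counts or shares past the limits used. The cause was not tested.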
